A study of Mus musculus with 41 samples.

Results

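The 10 genes described here are expressed by plasmacytoid dendritic cells, some of them also by other cells, and stood high in libraries sorted as age-associated B cells (ABC): Siglech, Tcf4, Runx2, Ccr9, Cadm1, Lair1, Grm8, Upb1, Cd209c and Peli2. They were taken by gene symbol, 10 of the 50763 genes in the count table, and all 10 were found. They were chosen by their measured levels in ABC libraries against the other subsets, so those levels are given as a description, with no test. The tests concern the genotype contrast inside each sorted subset, which was not itself used for the choice. Tests that include ABC libraries reuse the values of the choice and are not independent of it.

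Polyadenylated RNA was sequenced in bulk from splenic B cell subsets of mice aged 3 to 5 months. The mutant genotype, labelled 1Mek2, had Mek1flox/flox and Mek2+/- alleles with a Vav1-icre transgene, whose Vav1 promoter drives Cre in blood cells generally and not in B cells alone; its comparator is labelled wild type (wt). There were 3 libraries of 1Mek2 and 3 of wt in ABC, likewise 3 and 3 in Immature cells (B220+CD93+CD138-), 4 and 4 in germinal center (GC) cells (B220+CD93-CD138-GL7+FAS+), 4 and 4 in Follicular cells (in the B220+CD93-CD138-GL7-FAS- gate, CD21+CD23+), 3 and 3 in MarginalZone cells (in that gate, CD21+CD23-) and 3 and 3 in Plasma cells (B220+CD138+). The markers used for the ABC gate are not given in the labels, and 1 further Immature library, whose library name reads Mek1ff although its title says 1Mek2, was left out; a GC library of the same animal, also named Mek1ff but labelled wt, was kept.

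Plasmacytoid dendritic cells are a rare cell type that senses viral nucleic acid through endosomal Toll-like receptors and releases type I interferon. The E protein TCF4 (E2-2) holds them in that identity, with RUNX2, SPIB, IRF8, BCL11A, ZEB2 and CBFA2T3 as further regulators. In the mouse they carry B220, the antigen on which the stated B cell gates start, and the lectin Siglec-H, which B cells lack; TCF4 itself is also an active factor in B cells.

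The bases just before the transcription start of Siglech, Ccr9 and Runx2 are shown because TCF4 as an E protein binds E-boxes, RUNX2 binds RUNX motifs, and these 3 windows hold such letters. Capitals mark an E-box searched as CACCTG, which reads as CAGGTG when it lies on the other strand, or a RUNX motif searched as TGTGGT, which on the other strand reads as ACCACA. Sequences are RefSeq's on GRCm38.p6, an older build than the GRCm39 of the count table; each covers the 250 bases upstream of an annotated start, 5′ to 3′ in the gene's direction.
Siglech, chr7:55767934-55768183, plus strand: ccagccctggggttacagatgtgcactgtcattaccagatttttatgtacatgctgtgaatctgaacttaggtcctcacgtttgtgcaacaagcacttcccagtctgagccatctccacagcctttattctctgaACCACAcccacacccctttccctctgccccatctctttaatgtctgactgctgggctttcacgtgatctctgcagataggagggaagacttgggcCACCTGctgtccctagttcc
Ccr9, chr9:123766961-123767210, plus strand: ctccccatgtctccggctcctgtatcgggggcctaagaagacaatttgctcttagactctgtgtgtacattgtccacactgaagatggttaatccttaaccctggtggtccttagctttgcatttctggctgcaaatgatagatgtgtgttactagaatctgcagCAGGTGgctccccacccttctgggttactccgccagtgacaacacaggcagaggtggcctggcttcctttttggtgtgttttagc
Runx2, chr17:44814628-44814877, minus strand: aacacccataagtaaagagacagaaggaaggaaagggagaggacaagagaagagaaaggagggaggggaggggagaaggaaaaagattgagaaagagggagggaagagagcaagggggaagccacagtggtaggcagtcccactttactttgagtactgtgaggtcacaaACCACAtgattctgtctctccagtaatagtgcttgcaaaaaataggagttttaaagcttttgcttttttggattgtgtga
In Siglech the ACCACA starts 115 bases and the CACCTG 20 bases before the annotated start; in Ccr9 the CAGGTG starts 85 bases before it and in Runx2 the ACCACA 80 bases before it. Of the 8 genes whose promoters were compared here, 4 (Siglech, Ccr9, Grm8 and Peli2) held the E-box in at least 1 window and 2 (Siglech and Runx2) the RUNX motif, and these were 4 and 2 of the 10 windows of these genes, against 17.2% and 14% of all 32851 windows of the same length. A match of letters is not evidence of binding.

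The libraries differed in ways that bear on these genes. The 40 libraries came from 16 animals, held 7883989 to 34925667 counts, and several animals gave libraries of more than 1 subset. The authors counted each gene as a single interval from start to end, introns included (gene-span counts); reads on annotated exons were recovered from the deposited TPM values. Exon reads amounted to 77.5, 72.7 and 89.7% of gene-span counts in the ABC libraries labelled 1Mek2 and to 39.9, 41.2 and 50.02% in ABC wt, so that reads outside exons were most abundant in the ABC wt libraries. Library-scaled counts (CPM) were scaled by TMM factors of 0.69, 0.80 and 0.98 in ABC 1Mek2 and of 0.45, 0.53 and 0.75 in ABC wt, and lay between 0.72 and 1.62 in the other subsets. The targeted genes did not follow the labels in a simple way. In gene-span CPM Map2k1 (Mek1) was 213 to 269 in ABC 1Mek2 and 424 to 1241 in ABC wt and overlapped between genotypes in the other subsets. In exon CPM it was 20.3, 20.8 and 206 in ABC 1Mek2 and 10.2, 3.28 and 34.4 in ABC wt, which overlap. In gene-span CPM Map2k2 (Mek2) was not lower in 1Mek2 without overlap in any subset. It was higher in 1Mek2 than in wt without overlap in GC (59.4 to 107.5 against 36.8 to 56.5), MarginalZone (174 to 288 against 56.0 to 135) and Plasma (159 to 182 against 71.4 to 118). In the other subsets Map2k2 overlapped between genotypes. The mutant libraries are therefore called by their label. Ddx3y, a Y-linked gene, gave 16.2, 31.7 and 0.0719 gene-span CPM in ABC 1Mek2 replicates 1 to 3 and 0.686, 32.3 and 0 in ABC wt, so both genotypes held libraries with and without it.

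ABC_1Mek2 replicate 3 stood apart from the other 5 ABC libraries. It had 1099.5 CPM of Fcer2a, the CD23 gene of follicular cells, against 0.686 to 37.9 in the others, and 11.9 CPM of Itgax (CD11c), which ran from 87.1 to 161 in the others. Lgals1, another gene of the ABC program, was 17.0 CPM there against 351 to 1629. The summed level of 7 genes of the ABC program (Tbx21, Itgax, Itgam, Fcrl5, Cxcr3, Zbtb32 and Lgals1) was 98.9 CPM in it, 898 to 2284 in the other ABC libraries and 41.8 to 58.4 in Follicular wt. Of these genes, Itgax, Fcrl5 and Lgals1 were higher in every ABC wt than in every Follicular wt library (13.8% of genes tested). Tbx21, Itgam, Cxcr3 and Zbtb32 were not. Comparisons of ABC levels with other subsets and the ABC fold changes of the 10 genes are also given without it; the correlations over all libraries and the medians of gene lists include it.

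The 10 genes were high in 5 of the 6 ABC libraries, and in the other, ABC_1Mek2 replicate 3, they lay at the levels of the other subsets. Together they took 0.967, 0.258 and 0.0247% of all gene-span counts in ABC 1Mek2 replicates 1 to 3, and 1.16, 1.51 and 1.24% in the ABC wt libraries. Of the other subsets, GC libraries held 0.0368 to 0.0985%, Immature libraries 0.0473 to 0.0803%, Plasma libraries 0.0446 to 0.0794%, MarginalZone libraries 0.0416 to 0.0648% and Follicular libraries 0.0189 to 0.0299%. Since these are bulk libraries, a smaller share of cells carrying the transcripts and less RNA per such cell cannot be told apart.

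**Figure D1:**
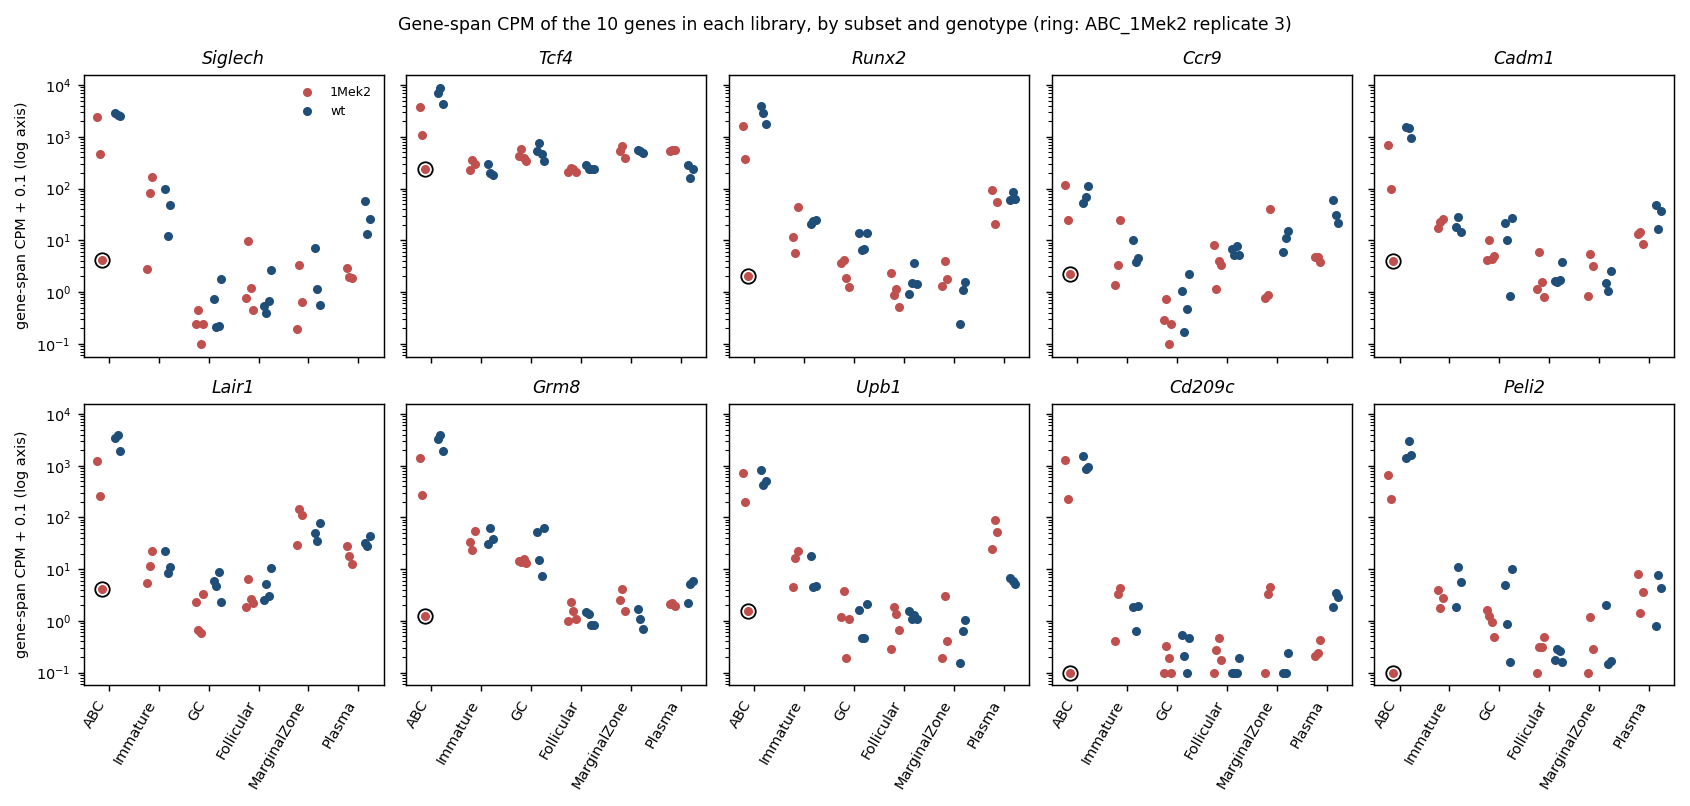
Gene-span CPM plus 0.1 (log axis) of each of the 10 genes in every library, by subset on the horizontal axis, with 1Mek2 libraries left of and in a different colour from wt libraries; the ring marks ABC_1Mek2 replicate 3. Apart from the ringed library, ABC points lie highest for 9 of the genes, while ABC and Plasma points of Ccr9 overlap.

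The transcription factors were high in ABC libraries against different levels elsewhere. Tcf4, a gene of 344.5 kb on chromosome 18, gave 3786, 1067 and 234 gene-span CPM in the ABC 1Mek2 libraries and 6902, 8976 and 4250 in ABC wt. All wt libraries were above all 1Mek2 ones, and replicate 3 lay at the level of the other B cells, which was 159 to 762 over their 34 libraries. The mean of MarginalZone libraries was 528 CPM, of GC 479, of Plasma 388, of Immature 261 and of Follicular 238, and the ranges of neighbouring subsets in that order overlapped.

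Runx2, a RUNX-family factor that is also the bone-forming regulator, gave 1634, 378 and 1.94 gene-span CPM in ABC 1Mek2 and 4007, 2907 and 1794 in ABC wt (chromosome 17, 44806873 to 45125518, GRCm39). Plasma libraries came next with a mean of 63.1 CPM and Immature libraries with 21.7; GC averaged 6.36, and Follicular (1.45) and MarginalZone (1.58) overlapped each other. Runx2os3 and Supt3 overlap Runx2 on the opposite strand, and the labels do not say whether counting used strand.

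Siglech and Cd209c are surface lectins. Siglech (chromosome 7, 55417916 to 55429196) gave 2385, 474 and 3.99 gene-span CPM in ABC 1Mek2 and 2935, 2626 and 2528 in ABC wt. The wt values lay close together, while the 1Mek2 values were far apart, with replicate 3 the lowest. Immature libraries held 2.71, 83.5 and 164 CPM in 1Mek2 and 99.6, 12.1 and 47.2 in wt, and Plasma, Follicular and MarginalZone libraries stayed under 58 CPM. Cd209c (chromosome 8), a mouse relative of the C-type lectin DC-SIGN, gave 1317, 222 and 0 CPM in ABC 1Mek2 and 1509, 850 and 941 in ABC wt. It was close to absent elsewhere, with 4.47 CPM in its highest library outside ABC (MarginalZone_1Mek2 replicate 3). The count of 0 in ABC_1Mek2 replicate 3 allows up to 0.108 CPM, the level of 3 counts, for counting error only.

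Ccr9, the receptor of the chemokine CCL25, did not separate ABC from all other subsets. It gave 115, 24.2 and 2.12 gene-span CPM in ABC 1Mek2 and 53.6, 69.0 and 114 in ABC wt, so the genotypes overlapped. Plasma wt libraries held 60.4, 30.7 and 21.8 CPM, inside the range of the ABC libraries, and 1 MarginalZone_1Mek2 library held 39.7.

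The adhesion molecule Cadm1 gave 702, 96.2 and 3.81 gene-span CPM in ABC 1Mek2 and 1579, 1509 and 932 in ABC wt. Lair1, an inhibitory receptor for collagen, gave 1257, 265 and 3.95 in ABC 1Mek2 and 3365, 3987 and 1899 in ABC wt. For both, all 1Mek2 values lay below all wt values. The next highest subset was Plasma for Cadm1, at a mean of 22.9 CPM against 20.6 in Immature, and MarginalZone for Lair1, at 74.0. Grm8, a metabotropic glutamate receptor of neurons and the longest of the 10 genes at 860.0 kb, gave 1391, 266 and 1.15 CPM in ABC 1Mek2 and 3313, 4009 and 1932 in ABC wt. Immature libraries followed at a mean of 40.2 CPM and GC at 24.3, with overlapping ranges.

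The last genes act inside the cell. Upb1, the last enzyme of pyrimidine breakdown, gave 733, 197 and 1.44 gene-span CPM in ABC 1Mek2 and 822, 420 and 501 in ABC wt. The genotypes overlapped, because replicate 1 of 1Mek2 was above 2 of the wt libraries. Peli2, a Pellino ubiquitin ligase of Toll-like receptor signalling, gave 649, 230 and 0 CPM in ABC 1Mek2 and 1439, 2977 and 1627 in ABC wt. Outside ABC it reached 10.8 CPM at most, in Immature_wt replicate 2.

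In TPM, exon reads are divided by the summed length of a gene's annotated exons. Siglech stood at 716, 175 and 1.99 TPM in ABC 1Mek2 and 1713, 1843 and 1764 in ABC wt, Cd209c at 866, 166 and 0 in ABC 1Mek2 and 2093, 1316 and 1505 in ABC wt, and Upb1 at 276, 88.6 and 1.00 in ABC 1Mek2 and 657, 361 and 440 in ABC wt. Tcf4, at 51.9, 19.8 and 9.17 TPM in ABC 1Mek2 and 120, 130 and 95.4 in ABC wt, was below these 3 genes in each ABC wt library. That order depends on the exon length, which was 44311 bases for Tcf4, 3832 for Siglech, 3042 for Upb1 and 2009 for Cd209c. In exon reads Tcf4 was above Upb1 and Cd209c and below Siglech in each ABC wt library (17425 against 6560, 13798 and 21544 in replicate 1).

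Set against all 34 libraries of the other subsets, all of the 5 ABC libraries other than 1Mek2 replicate 3 were higher for 9 of the 10 genes in gene-span CPM, the exception being Ccr9 with 3 of 5. Of all genes with a mean of at least 1 CPM, 0.876% had that pattern, and the members were chosen for it. In exon CPM 8 genes had it, Ccr9 and Grm8 having 3 of 5 libraries each, against 0.687% of genes. In wt libraries alone, ABC was above Follicular without overlap for 10 of 10 (13.8% of genes tested). The same held against Immature (10, background 14.4%), GC (10, 13.3%), MarginalZone (10, 10%; in exon CPM 9, 8.04%) and Plasma (9, 17.7%), Ccr9 being the gene that overlapped with Plasma. With replicate 3 included, ABC 1Mek2 libraries were above Follicular 1Mek2 for 0 of 10 genes (2.43% of genes); without it the number was 10 (17.1%). With and without replicate 3 the numbers were 0 (15.9%) and 10 (26.7%) against Immature, 3 (12.3%) and 10 (24.7%) against GC, 1 (7.07%) and 9 (16.1%) against MarginalZone, and 1 (13.2%) and 10 (26.8%) against Plasma 1Mek2 libraries.

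Reads on exons gave a different picture of single genes. Siglech, Upb1 and Cd209c were mainly exonic in the 5 ABC libraries: exon reads were 71.9 to 80.8% of the gene-span count of Siglech, 76.7 to 79.1% of that of Upb1 and 85.2 to 93.4% of that of Cd209c. Grm8 and Peli2 were the opposite, with 0.0355 to 10.8% and 0.0328 to 3.34%. In ABC_wt replicate 1 Grm8 had 33799 gene-span counts and 12 exon reads, and in ABC_wt replicate 2 it had 41039 and 4450. Peli2 had 30472 gene-span counts and 10 exon reads in ABC_wt replicate 2, and 24844 and 701 in ABC_wt replicate 3. Most counts of these 2 genes in ABC libraries therefore lay off the annotated exons, and the number of their exon reads differed widely between wt replicates. Runx2 (2.89 to 16.2%), Lair1 (7.16 to 29.2%), Cadm1 (2.76 to 33.1%) and Tcf4 (19.3 to 46.8%) lay between. Ccr9 ran from 8.78% in ABC_wt replicate 1 to 92.7% in ABC_1Mek2 replicate 1. Outside ABC the median exon share was 75.2% for Tcf4, 69.5% for Cadm1 and 55.7% for Lair1, all above their highest ABC value without replicate 3. Genes that overlap Grm8 (Mir592 among them) and Peli2 on the map could take part of these counts, and how such reads were assigned is not given in the sources used here.

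**Figure D2:**
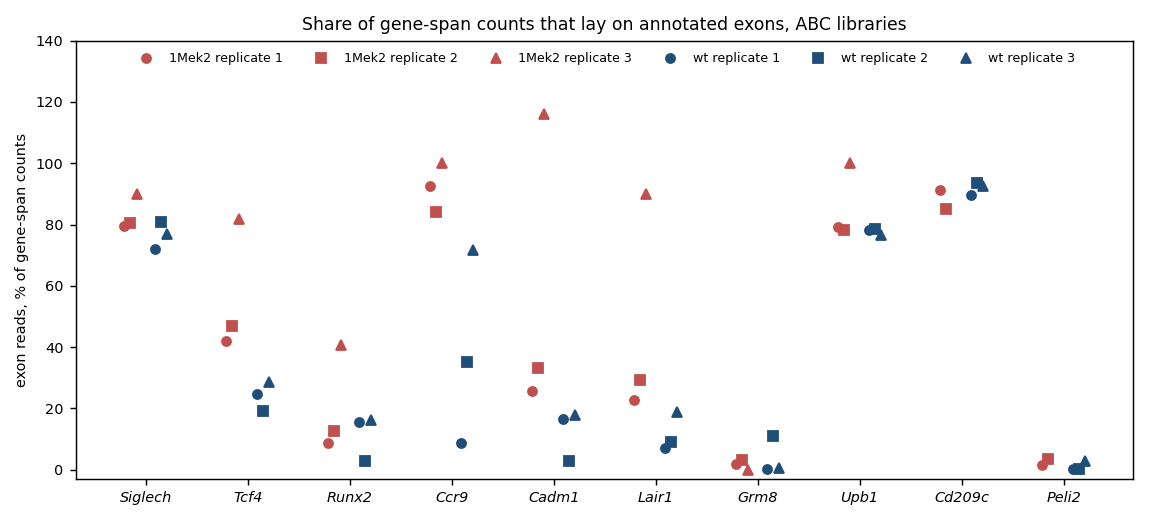
Exon reads as a percentage of gene-span counts (vertical axis) for each gene in the 6 ABC libraries; colours separate 1Mek2 from wt and symbols the replicates, and no point is drawn where the gene-span count was under 10. Siglech, Upb1 and Cd209c lie above 70% in the ABC libraries, and Grm8 and Peli2 at or under 10.8%.

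The proportion of Siglech to Cd209c differed between ABC and Immature libraries, and those of Siglech to 3 other genes were wider or overlapped between subsets. Per exon read of Cd209c there were 1.56 to 2.67 reads of Siglech in the 5 ABC libraries other than 1Mek2 replicate 3, and 28.2 to 66 in the 6 Immature libraries. The ranges did not overlap, although Cd209c had as few as 1 exon read in an Immature library. Siglech reads per Upb1 read were 2.48 to 6.44 in these ABC libraries and 1.06 to 11.9 in Immature ones, which overlap. Plasma libraries split by genotype, with 0.0202 to 0.0853 in 1Mek2 and 2.12 to 6.38 in wt. Within ABC itself, Siglech reads were 17.7 to 449 per Ccr9 read and 3.40 to 25.2 per Runx2 read. Between ABC 1Mek2 replicates 1 and 2, which differed in level for all 10 genes, the gene-span ratio of replicate 1 to replicate 2 was 2.83 (Peli2) to 7.30 (Cadm1).

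**Figure D3:**
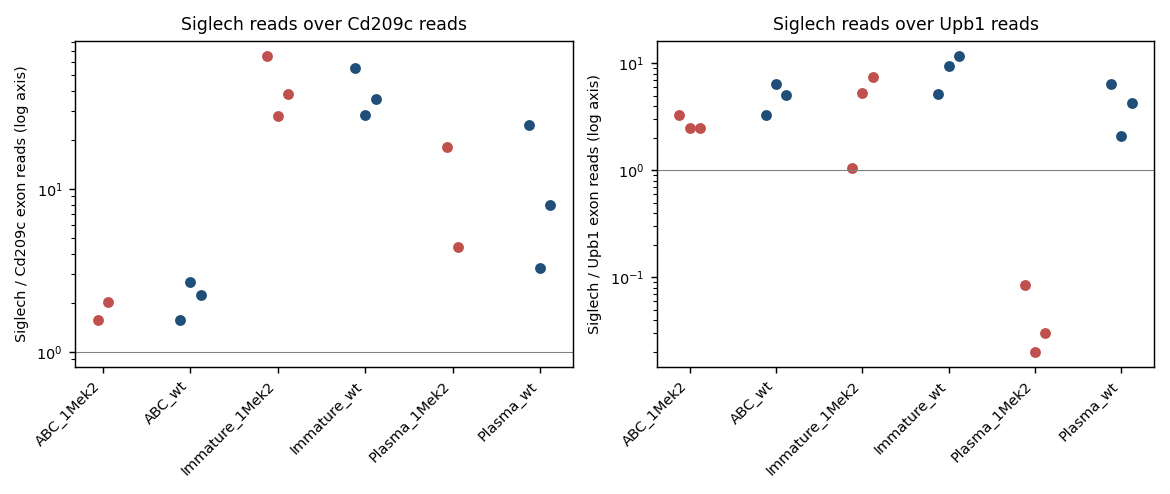
Exon reads of Siglech divided by those of Cd209c (left) and of Upb1 (right), on log axes, per library of ABC, Immature and Plasma, 1Mek2 left of wt; libraries with fewer than 20 reads of the pair, or 0 of either gene, are not drawn, and the grey line marks equal reads. ABC ratios to Cd209c lie between 1.56 and 2.67, below all Immature ratios, and Plasma 1Mek2 ratios to Upb1 lie under 0.1.

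Other genes of plasmacytoid dendritic cells were higher in ABC wt than in Follicular wt libraries for most surface and regulatory genes and, depending on the scale, for 1 or 3 of 7 sensing genes. In exon CPM every ABC wt library was above every Follicular wt library for 5 of 7 regulators (Irf8, Bcl11a, Zeb2, Cbfa2t3 and Ikzf1, not Spib and Irf7), 7 of 8 surface genes (Bst2, Ly6c2, Ptprs, Cd300c, Klra17, Clec12a and Flt3), 9 of 12 other enriched genes (not Ptcra, Atp1b1 and Ly6d) and 1 of 7 genes of nucleic acid sensing (Tlr9), where 11.7% of all genes had that pattern. In gene-span CPM the sensing genes with it were 3 (Tlr7, Tlr9 and Pacsin1) and the other enriched genes 7 of 12, against 13.8% of genes. Cox6a2 and Smim5 had no gene-span count in any library, so their levels rest on exon reads alone. Cox6a2, a subunit of cytochrome oxidase, had 2453, 1070 and 1.02 exon CPM in ABC 1Mek2 and 1102, 809 and 455 in ABC wt, and 0.138 to 0.448 in Follicular wt. Klra17, a lectin-like receptor, had 138, 45.4 and 0 in ABC 1Mek2 and 723, 220 and 106 in ABC wt, against at most 0.185 in Follicular wt. Both were near 0 in ABC_1Mek2 replicate 3, like Siglech. Irf8, a factor that B cells also use, had 5141, 3126 and 883 in ABC 1Mek2 and 8467, 6618 and 2882 in ABC wt, against 585 to 968 in Follicular wt.

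Genes of other cell types were present in the same ABC libraries, and their part in the levels above was not tested. The summed exon CPM of 10 B cell genes (Ms4a1 and Pax5 among them) was 9301 to 11932 in ABC 1Mek2, 4862 to 7895 in ABC wt and 8713 to 12014 in Follicular wt. Within it, Pax5 averaged 1257 in ABC wt and 770 in Follicular wt, while Cd79b averaged 494 and 2203 and Fcer2a 3.31 and 569. The 9 conventional dendritic cell genes summed to 29.1 to 934 in ABC 1Mek2 and 732 to 2088 in ABC wt, against 31.6 to 46.3 in Follicular wt, and 4 of 9 (Clec9a, Cd209a, Clec10a and Id2) were above Follicular wt without overlap. Clec4a4 had no exon read in ABC wt. The 7 T cell genes summed to 198 to 1470 in ABC 1Mek2 and 386 to 4153 in ABC wt (51.8 to 135 in Follicular wt; Lck and Cd28 without overlap). The 7 natural killer cell genes summed to 30.7 to 245 in ABC 1Mek2 and 18.1 to 1705 in ABC wt (6.43 to 16.1 in Follicular wt; Ncr1, Klrb1c and Eomes without overlap). None of 9 monocyte and macrophage genes, 6 neutrophil genes or 7 plasma cell genes was above Follicular wt in all ABC wt libraries. Monocyte and macrophage genes summed to 174 to 869 in ABC 1Mek2 and 11.03 to 786 in ABC wt, plasma cell genes to 653 to 1056 in ABC 1Mek2 and 43.2 to 240 in ABC wt, and neutrophil genes to 44.96 to 314 in ABC 1Mek2 and 0 to 0.363 in ABC wt, with S100a8, S100a9, Ngp, Camp and Retnlg at 0 in ABC wt.

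**Figure D4:**
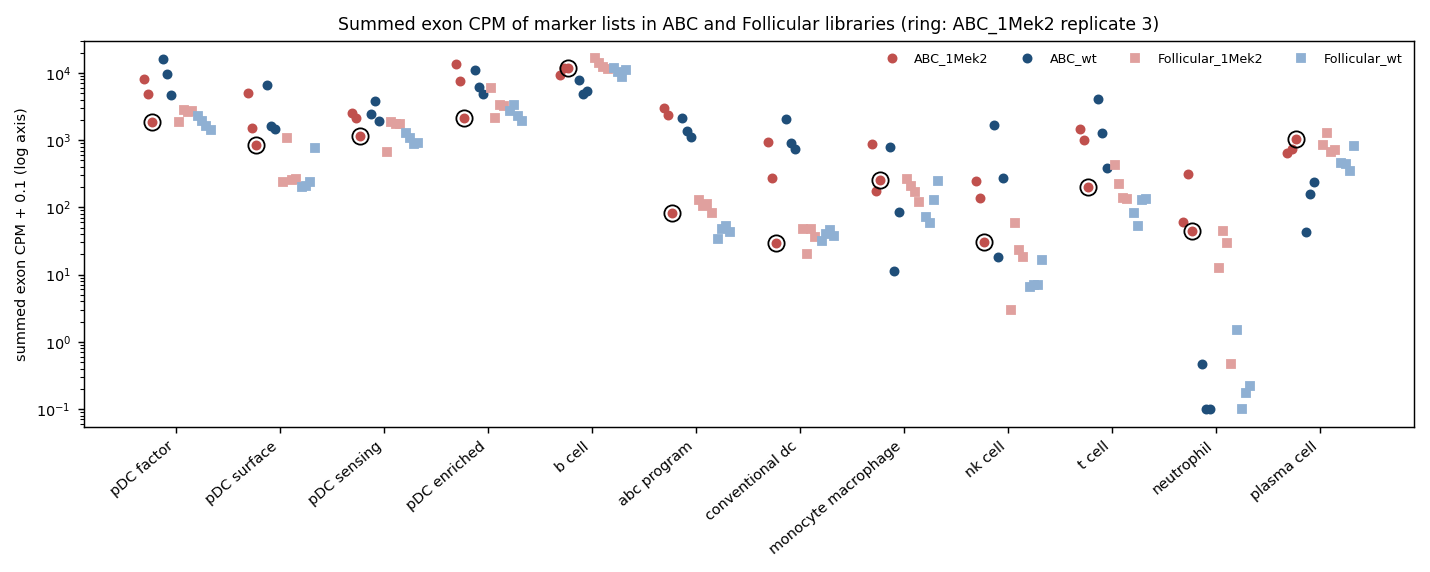
Summed exon CPM plus 0.1 (log axis) of the gene lists named on the horizontal axis in ABC 1Mek2, ABC wt, Follicular 1Mek2 and Follicular wt libraries, 1 point per library, with a ring round ABC_1Mek2 replicate 3. Conventional dendritic cell genes reach 2088 in ABC wt against at most 46.3 in Follicular wt, while B cell genes lie between 8713 and 12014 in Follicular wt and at 4862 or more in ABC libraries.

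The genes whose exon levels most resembled the mean of the 10 over the 40 libraries were Klra17 (Pearson r = 0.959), Gria3 (0.956), Paqr5 (0.937), Gm39091 (0.936), Cox6a2 (0.935), Tbc1d8 (0.932), Ddr1 (0.930) and Tcf7l2 (0.930), among 14395 genes with a mean of at least 1 exon CPM. These coefficients are a description; the libraries share sorts, animals and scaling. Gria3, a glutamate receptor subunit, ran from 64.0 to 438 exon CPM in the 5 ABC libraries and was 0.598 in ABC_1Mek2 replicate 3. Tcf7l2, a Wnt-pathway transcription factor, ran from 245 to 4637 in those 5 and was 4.96 in replicate 3. All 8 were higher in each of the 5 ABC libraries than in any library of the other subsets. Of the 10 genes themselves, Cd209c (0.965) and Siglech (0.945) were closest to the mean and Tcf4 (0.785) and Ccr9 (0.730) farthest.

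The first test of genotype concerned the ABC libraries, in which all 10 genes had lower fitted levels in 1Mek2 and none passed the test. The log2 fold changes (edgeR quasi-likelihood test, 1Mek2 minus wt, SE after the sign ±) ran from -2.85 ± 1.74 for Peli2 to -0.74 ± 1.35 for Ccr9, with adjusted p-values of 0.369 and 0.772. Lair1 differed by -2.71 ± 1.16 (adjusted p = 0.217), Cadm1 by -2.43 ± 1.10 (0.232), Tcf4 by -2.08 ± 0.81 (0.186) and Siglech by -1.58 ± 1.21 (0.468), all by edgeR. The median of the 10 was -2.16, where that of all 12583 genes tested was 0.03. The 10 were chosen for their level in these same libraries, so the gap between the medians is a description. No gene of the 12583 was called (0%); 2517 had an unadjusted p under 0.05, and DESeq2 called 1250 of 26117 unfiltered genes (4.79%), none of the 10. RLE scaling put the median of all genes at -0.34 and that of the 10 at -2.53, and library size alone put them at 0.47 and -1.65. The median of the 10 was -3.79 without 1Mek2 replicate 1 and -1.57 without 1Mek2 replicate 3. In 7 genes (Siglech, Tcf4, Runx2, Cadm1, Lair1, Grm8 and Peli2) every 1Mek2 library was below every wt library, a pattern of 11.6% of genes tested; without 1Mek2 replicate 3 the same 7 had it (14.5%). No gene of the 10 had every 1Mek2 library above every wt library (14.3% of genes). Their number was 5 with RLE scaling (13.7%), 6 with library size alone (8.1%) and 3 in exon reads (6.33%), each the same without replicate 3 (17.1, 10.8 and 8.79%), and Siglech was not among them under either other scaling of gene-span counts. Without replicate 3 of 1Mek2 the 10 log2 fold changes ran from -2.24 to -0.17, again all negative, with edgeR adjusted p-values of 0.225 to 0.970.

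The fitted differences were smaller for the shorter genes, a division made after the values were seen. The 4 genes with spans of 11.3 to 34.8 kb (Siglech, Ccr9, Upb1 and Cd209c) had log2 fold changes of -1.58 to -0.74, and the 6 with spans of 66.5 to 860.0 kb had -2.85 to -2.08, with no overlap between the sets. Without 1Mek2 replicate 3 the ranges were -0.96 to -0.17 and -2.24 to -1.53, and in exon reads they overlapped (-2.48 to -0.36 and -4.72 to -1.89). Beside this, 12 tested long genes of neurons, which served as a measure of reads along gene bodies, had 0 positive fold changes in the ABC comparison and a median of -2.95. Their summed level, with 1 further gene, was 15.7 to 404 gene-span CPM in ABC 1Mek2 and 383 to 3187 in ABC wt. In exon CPM it was 1.48 to 13.6 in ABC 1Mek2 and 5.87, 18.1 and 1030 in ABC wt, in rising order. The list therefore did not measure reads off exons alone. The pattern of negative fold changes was not particular to ABC. Of the tested genes of this list, 0 of 13 had positive fold changes in Immature (median -0.72), 0 of 13 in GC (-1.84) and 0 of 12 in Follicular (-1.07). In MarginalZone 9 of 12 were positive (0.29), and in Plasma 1 of 8 (-0.90). Whether such reads had a part in the genotype differences of the 10 genes was not tested.

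**Figure D5:**
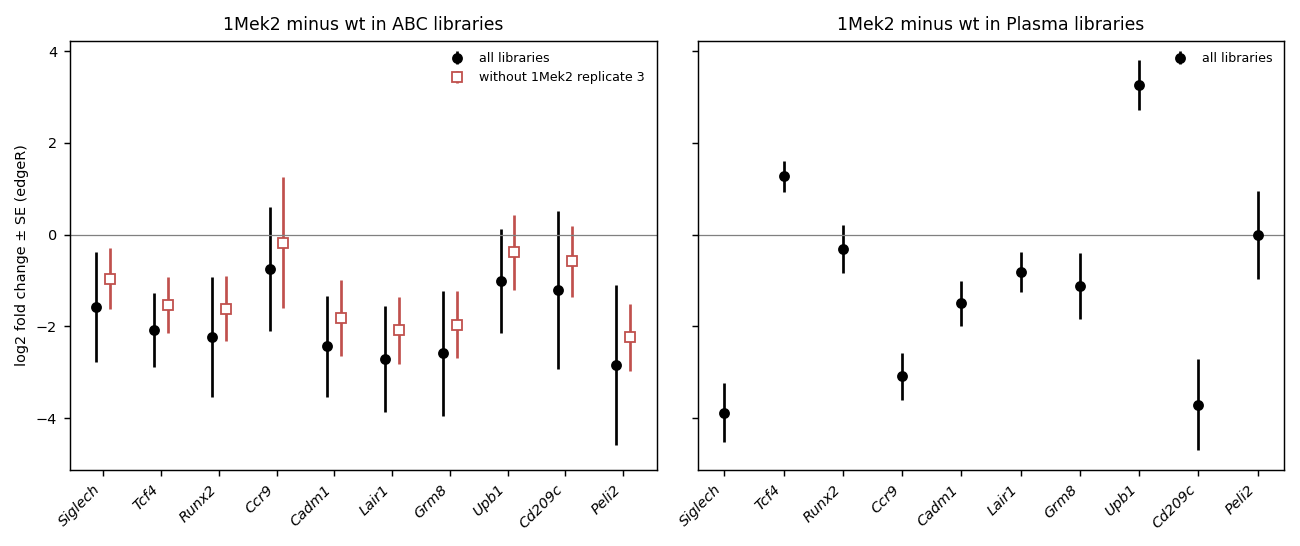
Log2 fold changes (1Mek2 minus wt, edgeR, bars ± SE) of the 10 genes in ABC libraries (left; filled circles with all libraries, open squares without 1Mek2 replicate 3) and in Plasma libraries (right). All ABC values lie below 0, and in Plasma Upb1 and Tcf4 lie above 0 and Siglech, Cd209c and Ccr9 lowest.

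In Plasma libraries, the genes did not move as one block. Siglech had 2.77, 1.87 and 1.80 gene-span CPM in Plasma 1Mek2 and 57.3, 13.1 and 25.9 in Plasma wt, a log2 fold change of -3.88 ± 0.64. Ccr9 had 4.68, 4.75 and 3.74 in 1Mek2 and 60.4, 30.7 and 21.8 in wt (-3.09 ± 0.51). Upb1 went the other way, with 24.9, 88.5 and 52.3 in 1Mek2 and 6.66, 5.75 and 5.00 in wt (3.26 ± 0.54). None of the 3 passed (edgeR adjusted p = 0.068 for each), and each had groups without overlap. Tcf4 had 533, 548 and 563 CPM in Plasma 1Mek2 and 286, 159 and 236 in wt (1.27 ± 0.34, edgeR adjusted p = 0.131), and Cd209c 0.109, 0.144 and 0.334 in 1Mek2 and 1.73, 3.43 and 2.79 in wt (-3.71 ± 0.99, edgeR adjusted p = 0.136). Without overlap, 4 genes (Siglech, Ccr9, Cadm1 and Cd209c) were lower, against 10.4% of genes tested, and 2 (Tcf4 and Upb1) higher, against 13.1%. The number lower was 5 with RLE scaling (10.7%), 5 in exon reads (9.34%) and 6 with library size alone (16.1%). Of 14878 genes 9 (0.0605%) were called in Plasma, none of the 10. On the unfiltered 26959 genes, DESeq2 called 1098 (4.07%), among them 5 of the 10 (Siglech, Ccr9 and Cd209c lower, Tcf4 and Upb1 higher), and edgeR called 454 (1.68%), among them 3 (Siglech, Ccr9 and Upb1).

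The sums of some other cell types' genes did not overlap between the same Plasma groups, although no gene of these lists was called. Gene-span CPM summed over conventional dendritic cell genes to 142 to 194 in Plasma 1Mek2 and 323 to 565 in wt. The sums were 75.1 to 219.5 in 1Mek2 and 307.5 to 550.9 in wt for natural killer cell genes, and 2013 to 2532 in 1Mek2 and 555 to 941 in wt for B cell genes. Those of T cell genes (2037 to 2262 in 1Mek2, 2173 to 3714 in wt) and neutrophil genes (2783 to 8078 in 1Mek2, 1424 to 4120 in wt) overlapped. Clec9a, Gzma and Ms4a1 had no gene-span count in any library, so the sums of their lists leave them out. The part of these cell types' genes in the differences of Siglech, Ccr9 and Upb1 was not tested.

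In the other subsets 0 of the 10 genes passed. All 10 were tested in Immature libraries, where 197 of 21115 genes (0.933%) were called; their log2 fold changes ran from -1.08 ± 0.88 (Peli2) to 0.95 ± 1.01 (Cd209c), with edgeR adjusted p-values of at least 0.733. In GC 7 were tested and 9 of 16681 genes (0.054%) called. Runx2 had 1.15 to 4.04 gene-span CPM in GC 1Mek2 and 6.35 to 13.6 in GC wt without overlap (-1.96 ± 0.73, edgeR adjusted p = 0.409); it was the only one of the tested 7 with every 1Mek2 library below every wt library, against 1.58% of genes. In Follicular and MarginalZone libraries 8 each were tested and no gene of 14128 and 12907 was called (0% in both; 1570 and 1132 genes at an unadjusted p under 0.05, and 181 and 214 called by DESeq2). The difference between the genotype effect in ABC and that in Follicular cells, tested as an interaction, passed for 16 of 15572 genes (0.103%), or 30 without ABC_1Mek2 replicate 3, and for none of the 10 either way. The nearest was Tcf4 at -1.99 ± 0.89 (edgeR adjusted p = 0.228). Cd209c and Peli2 failed the count filter in Follicular alone and entered the interaction fit through the ABC libraries. For these genes it cannot decide whether the effects differ, since Follicular libraries held few counts of them. Most ABC animals also gave a Follicular library, and this fit treated libraries of the same animal as independent. With the animal as a block (limma voom) 283 genes passed, and again 0 of the 10.

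Genotype was also read in the lists of further plasmacytoid dendritic genes in ABC, where 0 of 7 regulators, 0 of 8 surface genes, 0 of 7 sensing genes and 0 of 9 tested enriched genes passed. Their median log2 fold changes were -1.34, -0.03, -0.44 and -0.68, against 0.03 for all genes tested. The surface genes were split, 4 of 8 being higher in 1Mek2. Bst2, a surface protein that interferon induces, had 2058, 508 and 41.7 exon CPM in ABC 1Mek2 and 64.3, 177 and 296 in ABC wt, and Ptprs, a receptor phosphatase of plasmacytoid dendritic cells, had 1177, 337 and 0.317 against 3318, 136 and 251. In both, replicate 3 was the lowest ABC library. Of the exon CPM sums of other cell types' genes given above, those of B cell, plasma cell and neutrophil genes were higher in ABC 1Mek2 than in ABC wt without overlap, and the others overlapped. In gene-span CPM the B cell sums overlapped too, at 8129 to 11775 in ABC 1Mek2 and 9000 to 10464 in ABC wt. Ms4a1, part of the exon sums, had no gene-span count in any library, so the gene-span sums leave it out. The part of these cell types' genes in the genotype differences was not tested.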

How the data were processed

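Bulk RNA-seq libraries of splenic B cell subsets were compared, 40 of 41 deposited. Per the submitters' processing notes, the tools were featureCounts 2.0.3, STAR 2.7.11a and Trim Galore 0.6.5 and the build GRCm39; their order and settings are not given in the sources used here. The deposited counts are whole-number counts per gene, and in 50760 of 50763 genes the length the authors list equals the whole gene interval. Deposited TPM values, which the authors scaled by exon length, were turned back into exon reads: all values under 2000 reads were whole within 0.02. Among the TPM entries, 6 name no gene; they hold up to 0.126% of exon reads and were left out. No 2 libraries held identical values.

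Counts were scaled by TMM and tested with edgeR 4.0.16 in R 4.3.3 (filterByExpr, robust quasi-likelihood fit, two-sided, Benjamini-Hochberg over all genes tested, threshold 0.05); limma 3.58.1 and DESeq2 1.42.0 served as alternatives. The fit was tested on simulated data. Animals were read from the library names; a group of 3 animals limits how small a difference can be seen, and the total counts limit genes with few reads. The members, the gene lists and the tests were chosen with earlier results of these data known. Values are given singly for the 10 genes, for genes of the lists, for the 8 genes most correlated with the mean of the 10 and for Map2k1 and Map2k2; Ddx3y, Bst2 and Ptprs were picked after their values were seen, and some genes of the lists are not reported singly here. Alternatives were RLE scaling, no filter, DESeq2, exon reads, the replicate number as a block, the animal as a block and leaving out each library; library size alone was added after seeing the data.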

Additional observations from a re-analysis of the deposited data

Results flagged for a closer look

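In groups of 4 libraries, 1 library stood far from the other 3 in 6 cases. There were 40 combinations of gene and group, and those in which no library reached 1 gene-span CPM were not examined. For normally distributed values chance gives about 1 in 20. Siglech was 9.60 gene-span CPM in Follicular_1Mek2 replicate 2, against 0.344 to 1.12 in the other 3 libraries, and Cadm1 was 5.87 in the same library, against 0.688 to 1.49. In Follicular_wt replicate 4 Siglech was 2.57, against 0.289 to 0.558, and Cadm1 3.63, against 1.48 to 1.61. Tcf4 was 282.0 in Follicular_wt replicate 1, against 236.9 to 243.8. Cadm1 was 10.1 in GC_1Mek2 replicate 4, against 4.01 to 4.83.

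Tcf4 also moved in opposite directions in 2 subsets without overlap of the genotypes: its log2 fold change, 1Mek2 minus wt, was -2.08 in ABC and 1.27 in Plasma libraries. Neither passed the edgeR test after adjustment, and the difference between them was not tested.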

How the results depend on the processing

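The ABC log2 fold changes of the 10 genes were negative under every alternative run, with a median of -3.57 under the replicate block (-2.16), and outside Plasma none of the 10 was called under any. Counts of all genes called moved more. Without the low-count filter they were 309 in ABC (0 in the reported fit), 344 in Immature (197), 42 in GC (9), 2 in Follicular (0), 207 in MarginalZone (0) and 454 in Plasma (9), with 3 of the 10 genes called in Plasma. DESeq2 called 1250 in ABC, 204 in GC, 181 in Follicular, 214 in MarginalZone and 1098 in Plasma, with 5 of the 10 genes there. Exon reads gave 50 in Immature and 0 in GC, Plasma and the interaction (16), and 1 of the 10 genes with all ABC above all Follicular 1Mek2 libraries (0). RLE scaling gave 297 in Immature. Library size alone gave 12 in ABC, 5 in GC, 37 in Plasma with 1 of the 10 (Ccr9), and 43 in the interaction; the animal as a block (limma voom) gave 283 there.

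The deviations of same-numbered libraries had correlations of 0.14 and 0.46 in Immature, with 2 shared numbers, and of 0.018 to 0.083 in ABC. Correlations were of mixed sign in GC (-0.088 to 0.33) and Follicular (-0.63 to 0.39) and below 0 in MarginalZone and Plasma. No label says that a number marks a shared animal or batch. With the replicate block the counts were 1006 in Immature, 1 in GC, 0 in Plasma and 0 in the interaction. Leaving out 1 library gave between 0 and 30 calls in ABC, between 32 and 738 in Immature, 0 to 18 in GC, from 0 up to 14 in Follicular, 0 in Plasma each time, and 0 to 2482 in the interaction, the highest without ABC_wt replicate 3. The number of the 10 with ABC above Follicular 1Mek2 libraries was 0 to 10, and 10 without ABC_1Mek2 replicate 3. In Plasma, Peli2 (-0.00) changed sign without a filter (0.0053), with the replicate block (0.040) and over left-out libraries (-0.80 to 0.74), and Runx2 (-0.32) ran from -0.87 to 0.12. The cause of these changes was not tested.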
